A study of Mus musculus with 30 samples.

Results

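Whole fetal mouse testes that had been cultured with a phthalate metabolite plus retinoic acid were compared with testes cultured with the phthalate metabolite alone. The 4 libraries labelled MEHP + ATRA were set against the 6 labelled MEHP, and all 15 vehicle libraries entered the comparison to remove a difference between ranges of sample title numbers, which makes 25 of the 30 libraries of the series. Testes of C57BL/6 fetuses, taken on gestational day 14 and freed of the mesonephros, were kept for 24 h on culture inserts. MEHP cultures received 100 µM mono-(2-ethylhexyl) phthalate, MEHP + ATRA cultures received 100 µM MEHP with 1 µM all-trans retinoic acid, and vehicle cultures received the DMSO that all groups shared. The remaining 5 libraries, labelled ATRA (1 µM ATRA without MEHP), gave the effect of ATRA outside MEHP. Each compound was tested at 1 dose and 1 time in an explanted whole organ. The labels do not say how many testes or litters a library holds, so p-values measure the spread between these libraries, which may be partly technical.

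MEHP is the monoester formed from the plasticizer di-(2-ethylhexyl) phthalate, and it is known as an activator of peroxisome proliferator-activated receptors and as a fetal testis toxicant. Retinoic acid, made from vitamin A, binds receptors of the RAR and RXR families that sit on DNA and switch target genes on. In the fetal ovary it starts meiosis in germ cells through Stra8, whereas in the fetal testis the enzyme CYP26B1 destroys it and NANOS2 holds germ cells back from meiosis, so that they become prospermatogonia.

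Counts per library totalled 21463109 to 24038103 in MEHP + ATRA and 17787871 to 20680365 in MEHP. The second number in the sample titles lay below 500 for every MEHP + ATRA and ATRA library and above 500 for every MEHP library, while 9 vehicle libraries lay in the lower and 6 in the upper range. A fold change between MEHP + ATRA and MEHP was therefore the difference between the changes of each from the vehicle libraries of its own range, and it can differ from the ratio of the levels given beside it. Levels are CPM, that is counts scaled to library size after TMM normalization, and are compared within a gene. Of 19323 genes tested, 72 (0.373%) differed between ranges in vehicle, and 18 of the genes called below were among these. The lowest adjusted p for the range among the genes named by rule was that of Miox (0.0624). The tissue label could be checked in part against markers. Sertoli, Leydig and germ cell genes such as Amh (400 to 641 CPM in MEHP + ATRA), Cyp11a1 (570 to 854 CPM) and Ddx4 (99.7 to 159 CPM) were all present. The 8 tested mesonephros markers summed to 45.5 to 51.0 CPM in MEHP + ATRA. Without a library of mesonephros for reference, this sum cannot show how completely it was removed. In the MEHP + ATRA group, replicate 1 stood apart in Sertoli cell genes, with a summed level of 6036 CPM against 4328 to 4720 CPM in the other libraries. It was also highest for Leydig cell and steroidogenesis genes (4225 against 2923 to 3651 CPM), but not for interstitial progenitor genes (5874 against 5730.5 to 6101 CPM).

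Adding ATRA to MEHP changed 1601 genes, 8.29% of those tested, at an adjusted p under 0.05 (edgeR quasi-likelihood test). Of these, 784 (4.06%) were higher and 817 (4.23%) were lower, and 489 (2.53%) changed at least 2-fold, 290 of them upward and 199 downward. The median log2 fold change of all genes was −0.0043. The rises included the genes of retinoic acid breakdown, meiosis genes and anterior Hox genes, and the falls included steroid dehydrogenase, interstitial progenitor and immediate early genes. ATRA alone against vehicle called 3494 genes (18.1%). That comparison had a smaller median standard error (0.101 against 0.1513 on the log2 scale), and it shares the lower-range vehicle libraries with this one through the range term. Its values are therefore given beside the MEHP + ATRA values for reading only.

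**Figure D1:**
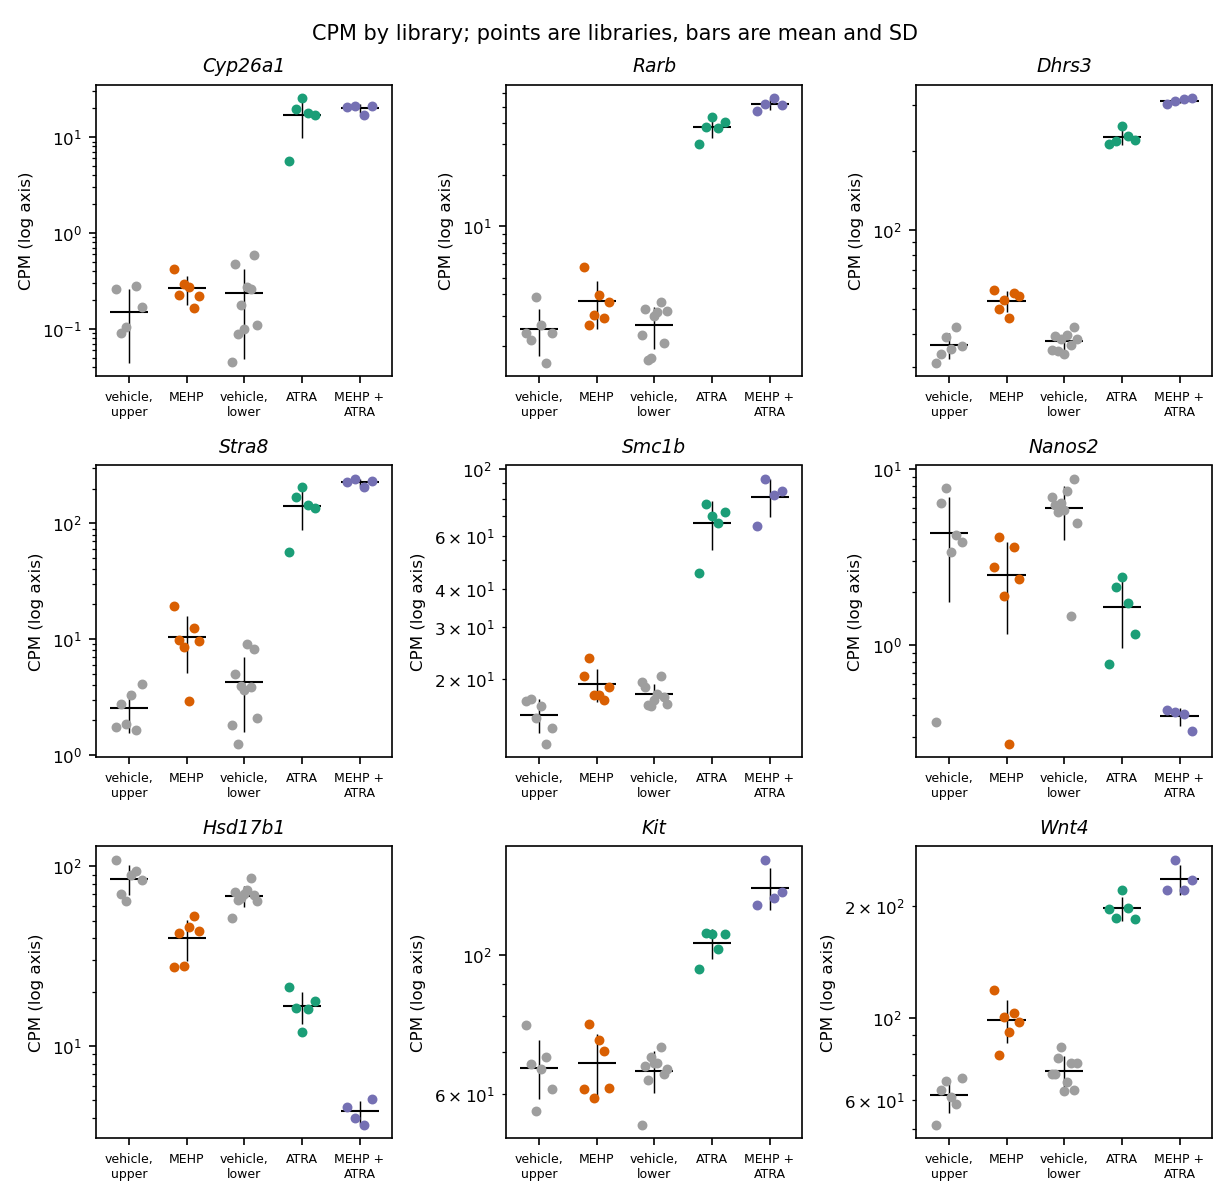
Expression of 9 genes in CPM (log axes) in every library, by group, with points for libraries and bars for the mean and SD; vehicle is split by range of the title number. Cyp26a1, Rarb, Dhrs3, Stra8, Smc1b, Kit and Wnt4 lay higher in all 4 MEHP + ATRA libraries than in all 6 MEHP libraries, Hsd17b1 lay lower, and Nanos2 overlapped through 1 MEHP library.

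All 3 genes of the CYP26 family, the cytochromes that hydroxylate retinoic acid for removal, rose when ATRA was added to MEHP. Cyp26a1 (ENSMUSG00000024987, chromosome 19, 37697808 to 37701528) stood at 20.8, 20.9, 16.8 and 21.1 CPM in the 4 MEHP + ATRA libraries and at 0.167 to 0.421 CPM (median 0.25) in the 6 MEHP libraries. The MEHP libraries held only 3 to 8 counts each, the base of the fitted rise of 5.54 ± 0.88 (log2 fold change ± SE, adjusted p = 5.87e-05). Cyp26c1 was counted 157, 159, 99 and 150 times in MEHP + ATRA and between 0 and 4 times in each MEHP library (5.06 ± 1.34, adjusted p = 0.0141). Its vehicle counts, which set the range term, were 0 to 3, and without vehicle replicate 10 the call was lost (adjusted p = 0.212). Cyp26b1, the form that clears retinoic acid in the fetal testis, was already abundant in MEHP at 161 to 236 CPM (median 220). In MEHP + ATRA it stood at 411.5, 301, 266 and 270 CPM, above every MEHP library (0.75 ± 0.21, adjusted p = 0.022), and the call was lost without MEHP + ATRA replicate 1 (adjusted p = 0.0962).

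Among 14 tested genes of retinoid supply and binding, 3 rose and 1 fell, with a median log2 fold change of 0.23. Dhrs3 (ENSMUSG00000066026, chromosome 4, 144892827 to 144928209), whose enzyme returns retinaldehyde to retinol, had 301, 311, 317 and 317 CPM in MEHP + ATRA and 45.9 to 58.7 CPM (median 54.8) in MEHP. The groups were far apart and each was tight, which gave one of the most precise rises in the comparison (2.49 ± 0.10, adjusted p = 6.56e-18). Lrat, which esterifies retinol for storage, rose by 2.34 ± 0.26 (adjusted p = 2.04e-07). It stood at 9.32, 9.26, 12.7 and 11.6 CPM against 1.28 to 2.31 CPM (median 1.72) in MEHP, again without overlap. Aldh1a1, a retinaldehyde dehydrogenase that makes retinoic acid, fell by 0.74 ± 0.13 in log2 (adjusted p = 0.000148), with 730, 515, 674 and 668 CPM against 884 to 1259 CPM (median 1088). The main embryonic retinaldehyde dehydrogenase gene Aldh1a2 (−0.33 ± 0.16, adjusted p = 0.25), the retinol uptake receptor gene Stra6 (0.17 ± 0.22, adjusted p = 0.764) and the binding protein gene Crabp2 (−0.28 ± 0.25, adjusted p = 0.63) did not pass.

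Of the 6 receptor genes 1 rose. Rarb, itself a classical retinoic acid target (ENSMUSG00000017491, chromosome 14, 16430842 to 16575472), had 46.9, 52.0, 56.3 and 51.3 CPM with MEHP + ATRA and 2.64 to 5.79 CPM (median 3.32) with MEHP. The rise of 3.74 ± 0.27 (adjusted p = 3.3e-11) stayed within 3.57 to 3.92 when single libraries were left out. Rara was at −0.33 ± 0.12 (adjusted p = 0.0947), and it passed in a limma-voom fit with sample weights (adjusted p = 0.00862). Rxra was at −0.24 ± 0.10 (adjusted p = 0.143), and Rarg, Rxrb and Rxrg lay between 0.05 and 0.76 without passing. Of a wider list of 25 genes known to respond to retinoic acid, 13 rose and 0 fell, and 8 of those are described with other groups. Others that rose were Tgm2, a transglutaminase (0.47 ± 0.12), Hic1, a transcriptional repressor (0.61 ± 0.14), and Nrip1, a nuclear receptor corepressor (0.34 ± 0.08).

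Among the largest rises were those of 3 genes whose promoter holds a direct repeat of retinoic acid receptor half-sites with 5 bases between them, and these promoters are shown because their genes rose. The search used the RefSeq promoter table (GRCm38.p6), the 250 bases before each gene's start, and both strands. Capitals mark the 6-base half-sites, and the sequences run 5′ to 3′ in the direction of the gene.
Cyp26a1: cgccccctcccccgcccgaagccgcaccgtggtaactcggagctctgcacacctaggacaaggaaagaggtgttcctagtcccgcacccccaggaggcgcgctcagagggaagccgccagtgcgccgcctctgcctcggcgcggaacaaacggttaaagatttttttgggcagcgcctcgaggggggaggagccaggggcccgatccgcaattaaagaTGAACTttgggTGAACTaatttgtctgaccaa
Rarb: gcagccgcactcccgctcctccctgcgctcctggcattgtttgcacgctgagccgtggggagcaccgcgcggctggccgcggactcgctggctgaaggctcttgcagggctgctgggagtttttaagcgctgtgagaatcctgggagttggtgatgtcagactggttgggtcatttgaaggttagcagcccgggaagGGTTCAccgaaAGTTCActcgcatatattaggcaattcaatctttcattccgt
Tnfsf13b: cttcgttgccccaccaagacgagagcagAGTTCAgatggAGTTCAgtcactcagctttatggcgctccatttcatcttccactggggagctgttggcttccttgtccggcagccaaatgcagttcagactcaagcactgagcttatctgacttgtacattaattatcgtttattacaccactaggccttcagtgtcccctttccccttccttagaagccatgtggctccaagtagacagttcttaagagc
The Cyp26a1 window is chr19:37697558-37697807 on the plus strand, and its repeat lies 32 to 16 bases before the start on the strand opposite to the gene. The Rarb window is chr14:16575477-16575726 on the minus strand, with the repeat 53 to 37 bases before the start, where this gene's textbook retinoic acid response element lies. The Tnfsf13b window is chr8:10006217-10006466 on the plus strand, with the repeat 222 to 206 bases before the start. Such a repeat occurred in 29 of 32851 windows (0.0883%). Counted by gene, it occurred in 3 of 593 raised genes with a window (0.506%), 0 of 586 lowered genes and 6 of 12102 genes that were not called (0.0496%). Windows were found for 86 of the 118 genes named by rule, and a match describes letters in this window, not binding. Tnfsf13b encodes the B cell survival cytokine BAFF. It stood at 15.8, 23.6, 20.04 and 21.1 CPM in MEHP + ATRA and at 0.495 to 1.21 CPM (median 0.868) in MEHP (4.78 ± 0.33, adjusted p = 1.75e-11).

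Anterior Hox genes, which pattern the body axis and include textbook retinoic acid targets, rose in part. Of 15 tested, 6 rose and 0 fell, and 14 of the 15 had a positive log2 fold change (median 0.81). Hoxb4 had 11.2, 12.8, 10.3 and 11.8 CPM against 3.15 to 5.39 CPM (median 3.73) in MEHP, a rise of 1.56 ± 0.29 (adjusted p = 0.000509). Hoxb1 rose by 2.95 ± 0.67, Hoxa4 by 2.38 ± 0.52, Hoxa3 by 1.17 ± 0.30 and Hoxc5 by 0.73 ± 0.22. Hoxb1, Hoxa4 and Hoxa3 did not exceed 7.03 CPM in a MEHP + ATRA or MEHP library. The paralogs Hoxd3 (0.02 ± 0.23) and Hoxd4 (−0.16 ± 0.15) did not pass, at 7.81 to 12.5 and 21.1 to 25.6 CPM in MEHP + ATRA. Cdx1, a caudal homeobox gene and known retinoic acid target, rose by 4.44 ± 0.54 (adjusted p = 7.61e-07), from 0.263 to 0.879 CPM (median 0.447) to 6.26, 10.3, 6.21 and 9.49 CPM.

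Of 30 meiosis genes, 14 rose and 0 fell with ATRA in the presence of MEHP (median log2 fold change 0.77). Stra8 (ENSMUSG00000029848, chromosome 6, 34920163 to 34939344), the gatekeeper of meiotic entry, stood at 226, 243, 206 and 232 CPM in MEHP + ATRA and at 2.91 to 19.5 CPM (median 9.71) in MEHP. No MEHP library came near the MEHP + ATRA libraries. The fitted rise was 3.65 ± 0.58 (adjusted p = 5.63e-05), with 3.47 to 3.93 when single libraries were left out. Meiosin (listed in the files as Gm4969), the partner of STRA8 in switching on meiotic genes, stood at 17.6, 28.1, 22.5 and 19.0 CPM against 7.71 to 11.04 CPM (median 8.57) and rose by 1.29 ± 0.20. In bulk tissue, fewer or more cells of a type and a change in RNA per cell cannot be told apart. The 18 germ cell and pluripotency markers, all of which were tested, summed to 893 to 1269 CPM in MEHP + ATRA and 644 to 1125 CPM in MEHP. These ranges overlapped, but the sums are not corrected for the range of title numbers. Vehicle summed to 983 to 1649 CPM (median 1293) in the lower range of MEHP + ATRA and to 792 to 1270 CPM (median 948) in the upper range of MEHP. With the range fitted, the median log2 fold change of the 18 markers was −0.13. The part of germ cell content in the meiotic rise was not tested.

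Of 4 meiotic cohesin genes in the list, 2 rose. Smc1b (ENSMUSG00000022432, chromosome 15, 85064691 to 85131957), a cohesin ring subunit specific to meiosis, had 64.9, 93.1, 82.4 and 84.5 CPM in MEHP + ATRA against 17.0 to 23.6 CPM (median 18.3). Its rise of 1.85 ± 0.15 had an adjusted p of 7.57e-10. Rec8, the meiotic kleisin, stood at 51.0, 67.3, 45.1 and 56.5 CPM against 8.65 to 12.97 CPM (median 10.97), a rise of 2.19 ± 0.31. Stag3, another meiotic cohesin subunit, had 108 to 155 CPM against 46.0 to 139 CPM (median 68.9) and did not pass (0.78 ± 0.37, adjusted p = 0.236). The kleisin gene Rad21l, with 2.42 to 4.004 CPM against 2.0 to 5.57 CPM, did not pass either (−0.51 ± 0.37, adjusted p = 0.524). Genes that tether telomeres to the nuclear envelope also rose, Majin by 1.81 ± 0.50, Terb2 by 1.75 ± 0.42 and Terb1 by 1.53 ± 0.32.

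Genes of chromosome pairing and recombination were mixed. Dmc1, the meiotic recombinase, had 15.8, 19.8, 20.6 and 19.1 CPM against 9.21 to 13.6 CPM (median 11.1) and rose by 0.79 ± 0.15. Hormad1, an axis protein, rose by 1.20 ± 0.29, the crossover gene Tex11 by 1.28 ± 0.23, the break formation gene Mei4 by 1.55 ± 0.36, and Meioc, which stabilises meiotic transcripts, by 1.51 ± 0.33. Of the synaptonemal complex genes, Sycp1 rose by 0.96 ± 0.23 and Syce2 by 0.54 ± 0.10. Sycp3 (0.03 ± 0.28), Sycp2 (0.19 ± 0.26), Spo11, which cuts DNA to start recombination (0.19 ± 0.20), and Prdm9, which places the cuts (0.23 ± 0.15), did not pass. Relative to vehicle of the same range, the median of the 14 raised genes was 0.00 to 0.33 on the log2 scale in the MEHP libraries and 1.35 to 1.64 in the MEHP + ATRA libraries. The rise of these genes chose the 14, so these medians describe them only.

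**Figure D2:**
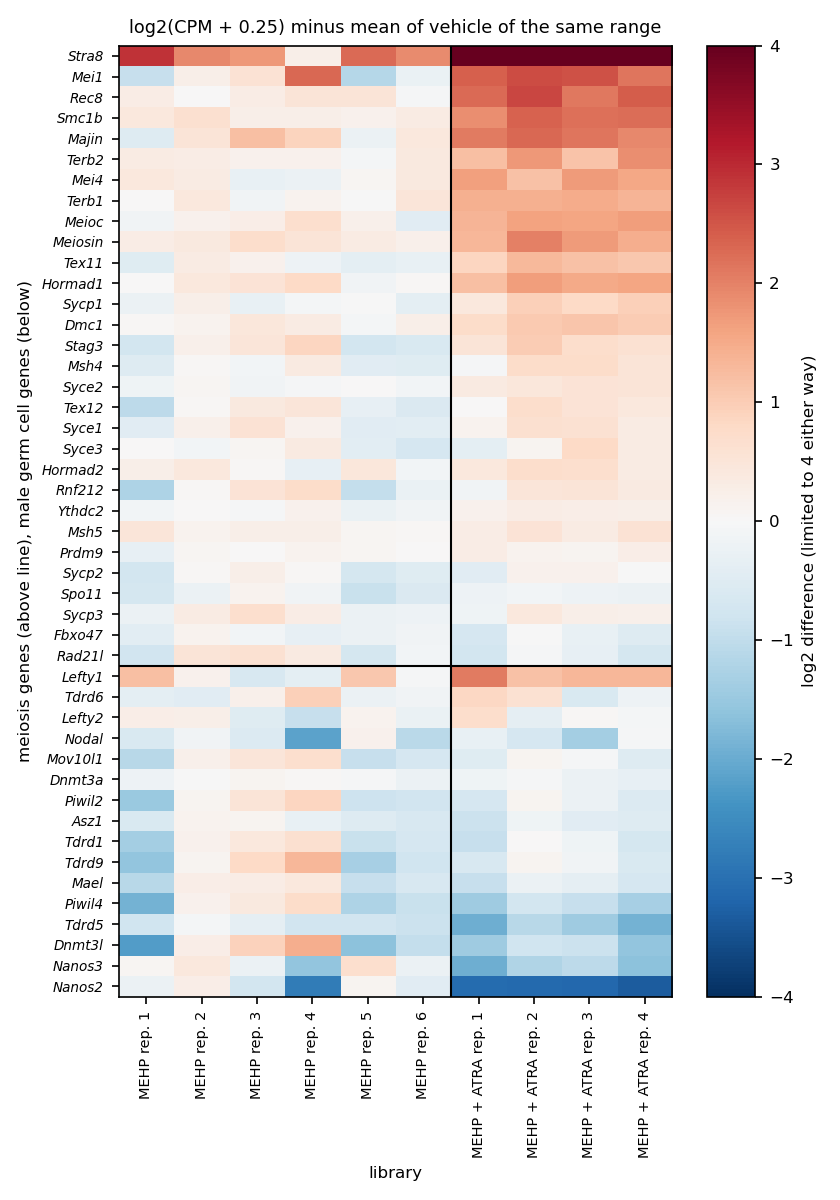
Heat map of 30 meiosis genes (above the line) and 16 of the 17 male germ cell genes (below it) in the 6 MEHP and 4 MEHP + ATRA libraries, as log2(CPM + 0.25) minus the mean of vehicle libraries of the same range, with colours limited at 4. Upper rows such as Stra8, Rec8 and Smc1b are higher in every MEHP + ATRA library. Rows such as Dnmt3l vary more among the MEHP than the MEHP + ATRA libraries, the only groups shown.

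Genes of male germ cell differentiation showed fewer calls: of 17 tested, 0 rose and 3 fell (median −0.22). Nanos2 (ENSMUSG00000051965, chromosome 7, 18987400 to 18988962) stood at 0.432, 0.419, 0.405 and 0.326 CPM in MEHP + ATRA and at 0.275 to 4.10 CPM (median 2.59) in MEHP. The 4 MEHP + ATRA libraries lay together, below 5 of the 6 MEHP libraries, and MEHP replicate 4 lay below them. The fitted fall was −3.12 ± 0.73 (adjusted p = 0.00538), and it was −3.37 to −2.88 when single libraries were left out. Nanos2 overlaps Gm45058 on the opposite strand. Tdrd5, a piRNA pathway gene, fell (−0.94 ± 0.25, adjusted p = 0.013). It was not called with the 10 MEHP + ATRA and MEHP libraries alone (−0.60, adjusted p = 0.0514). Nanos3, which supports germ cell survival, was just under the threshold (−1.40 ± 0.44, adjusted p = 0.047) and lost the call in 22 of 30 fits that left out a library.

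Other germ cell genes mostly did not pass. Dnmt3l, a cofactor of DNA methylation in prospermatogonia, ranged from 9.0 to 118 CPM (median 37.1) within MEHP and stood at 13.6, 21.4, 20.4 and 12.4 CPM in MEHP + ATRA (−1.25 ± 0.87, adjusted p = 0.488). The MEHP libraries thus spread more widely than the difference between the groups. The spread was not particular to MEHP: lower-range vehicle had 6.66 to 112 CPM, upper-range vehicle 12.2 to 118 CPM and ATRA 7.40 to 85.9 CPM. After the groups and the range were fitted, the leading axis of the remaining variation held 36.2% of it, and MEHP replicates 1 and 4 lay at −22.17 and 33.11 on it. MEHP + ATRA libraries lay between −5.63 and 8.60, vehicle libraries between −28.29 and 32.19 and ATRA libraries between −19.88 and 16.8. Of 18 germ cell and pluripotency genes, 1 rose, a share of 5.56% against 8.29% of all genes tested. It was the receptor tyrosine kinase gene Kit (ENSMUSG00000005672, chromosome 5, 75574916 to 75656722). Kit had 120, 142, 123 and 126 CPM against 59.2 to 77.8 CPM (median 65.9), a rise of 0.94 ± 0.10 (adjusted p = 1.41e-07). Ddx4, a pan-germ-cell RNA helicase gene (0.19 ± 0.23), and the pluripotency gene Pou5f1 (−0.03 ± 0.26) did not pass. Nor did Dppa4 (−0.84 ± 0.28, adjusted p = 0.0563), Tfap2c (−0.92 ± 0.33, adjusted p = 0.0809) and Utf1 (−0.61 ± 0.26, adjusted p = 0.174). Dppa4 and Utf1 were called lower in both fits with a block on the first title number, and Tfap2c was called lower without the range term (adjusted p = 0.0157). Depending on the fit, up to 4 members of the list were lower and up to 3 higher.

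Sertoli cell genes numbered 25, with 9 higher and 1 lower, and the count depended on a single library: without MEHP + ATRA replicate 1, the library with the highest summed Sertoli level, 6 rose and 4 fell. Without the range term 6 rose and 7 fell. Nr0b1, an X-linked nuclear receptor gene also called Dax1, stood at 72.7, 52.2, 59.6 and 60.6 CPM against 12.3 to 18.7 CPM (median 16.4), a rise of 2.06 ± 0.18 (adjusted p = 2.89e-09). Cldn11, a tight junction gene, rose by 1.30 ± 0.25, Shbg, which encodes the sex hormone carrier, by 1.11 ± 0.26 and Dmrt1, a male-fate transcription factor gene, by 0.70 ± 0.13. Dmrt1 is also expressed in germ cells. Cst9, Fgf9, Aard and Wt1 rose by 0.52 to 0.84. Gdnf, a growth factor for germ cells, fell by 0.60 ± 0.15 in log2 (adjusted p = 0.00975). Sox9, a Sertoli cell transcription factor gene, had 193, 147, 111 and 121 CPM against 89.5 to 121 CPM (median 116), so the groups overlapped. Its call (0.66 ± 0.21, adjusted p = 0.0427) was lost in 9 of 30 fits that left out a library. The Sox9 call was also lost with limma-voom (0.52, adjusted p = 0.0766) and in the 25 libraries without ATRA (adjusted p = 0.0538). The value was 0.35 with the 10 MEHP + ATRA and MEHP libraries alone (adjusted p = 0.09) and without the range term (adjusted p = 0.174). Amh, the anti-Müllerian hormone gene, did not pass (−0.48 ± 0.21, adjusted p = 0.185). It had 641 CPM in replicate 1 and 417, 400 and 435 CPM in the other MEHP + ATRA libraries, against 623 to 1066 CPM (median 732) in MEHP. Amh passed with limma-voom (−0.64, adjusted p = 0.0266), with the 10 MEHP + ATRA and MEHP libraries alone (−0.69, adjusted p = 0.00745) and without the range term (−0.70, adjusted p = 0.00342).

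Steroid pathway genes moved in opposite directions, with 3 of 18 higher and 5 lower. Hsd17b1 (ENSMUSG00000019301, chromosome 11, 101078411 to 101080527), a 17-beta hydroxysteroid dehydrogenase gene that fetal mouse Sertoli cells are known to express, fell furthest. Its levels were 4.62, 4.004, 3.65 and 5.09 CPM in MEHP + ATRA and 27.7 to 53.2 CPM (median 43.2) in MEHP. The fall was −2.89 ± 0.24 (adjusted p = 7.02e-10). MEHP itself was lower than vehicle for this gene (−1.09, adjusted p = 5.73e-06). Hsd17b3, the related enzyme that makes testosterone from androstenedione, fell too, with 36.7, 36.0, 36.7 and 40.8 CPM against 73.5 to 102 CPM (−1.14 ± 0.11, adjusted p = 2.33e-08). Srd5a1, a 5-alpha reductase gene, had −0.41 ± 0.10, Prlr, the prolactin receptor gene, −0.44 ± 0.12 and Fdxr, a mitochondrial electron donor gene, −0.49 ± 0.14, all called. Por, which passes electrons to microsomal cytochromes P450, rose by 0.77 ± 0.09, and Fdx1, the mitochondrial counterpart, by 0.65 ± 0.13. Star, which carries cholesterol into mitochondria, had 128, 83.1, 102 and 87.0 CPM against 40.9 to 67.0 CPM (median 56.2). Its rise of 0.70 ± 0.20 (adjusted p = 0.0219) was lost without MEHP + ATRA replicate 1 (adjusted p = 0.0927). The Leydig genes Cyp11a1 (0.08 ± 0.17), Cyp17a1 (0.49 ± 0.30), Hsd3b1 (−0.03 ± 0.13) and Insl3 (−0.16 ± 0.20) did not pass.

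Of 15 tested ovarian somatic genes, 4 rose and 0 fell (median 0.01). Wnt4 (ENSMUSG00000036856, chromosome 4, 137277489 to 137299726), a ligand of the ovarian pathway, had 221, 267, 222 and 236 CPM against 79.2 to 119 CPM (median 99.2), a rise of 1.05 ± 0.12 (adjusted p = 1.99e-07). Foxl2, a granulosa cell transcription factor gene, stood at 12.5, 12.2, 11.3 and 11.3 CPM against 2.36 to 6.06 CPM (median 5.20) and rose by 1.45 ± 0.33 (adjusted p = 0.0044). Both groups of libraries were apart for these genes. Runx1, a transcription factor gene of fetal ovarian supporting cells, rose by 1.36 ± 0.23 and Lgr5, a receptor for R-spondins, by 0.82 ± 0.20. Rspo1, the R-spondin gene of the ovarian pathway (−0.35 ± 0.30), Fst (0.01 ± 0.44) and the Wnt target gene Axin2 (0.00 ± 0.14) did not pass.

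Interstitial progenitor genes went down more often than up, with 7 of 16 lower and 1 higher (median −0.34). The 16 markers summed to 5730.5 to 6101 CPM in MEHP + ATRA and 6587 to 8073 CPM in MEHP, without overlap. Pdgfra, a growth factor receptor gene, had 757, 800, 845 and 795 CPM against 1140 to 1389 CPM (median 1314) and fell by 0.61 ± 0.09 in log2 (adjusted p = 1.16e-05). Lhx9, a homeobox gene of interstitial cells, fell by 0.88 ± 0.12 in log2. The Hedgehog response genes Gli1 (−0.56 ± 0.10) and Hhip (−0.93 ± 0.24), and the collagen gene Col3a1 (−0.50 ± 0.09) were also lower. The small proteoglycan gene Dcn rose, from 216 to 310 CPM (median 246) in MEHP to 374 to 507 CPM (0.87 ± 0.19, adjusted p = 0.00203). The ligand gene Dhh (0.20 ± 0.15) and the Hedgehog receptor gene Ptch1 (−0.23 ± 0.10, adjusted p = 0.182) did not pass. Of 12 peritubular myoid and smooth muscle genes, 2 fell and 0 rose, the myosin light chain gene Myl9 (−0.35 ± 0.10) and the tropomyosin gene Tpm1 (−0.40 ± 0.12). The count was 0 without MEHP + ATRA replicate 2 or 4, and 1 without MEHP + ATRA replicate 3 or vehicle replicate 10. Smooth muscle actin, Acta2, did not pass (0.31 ± 0.14, adjusted p = 0.185).

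**Figure D3:**
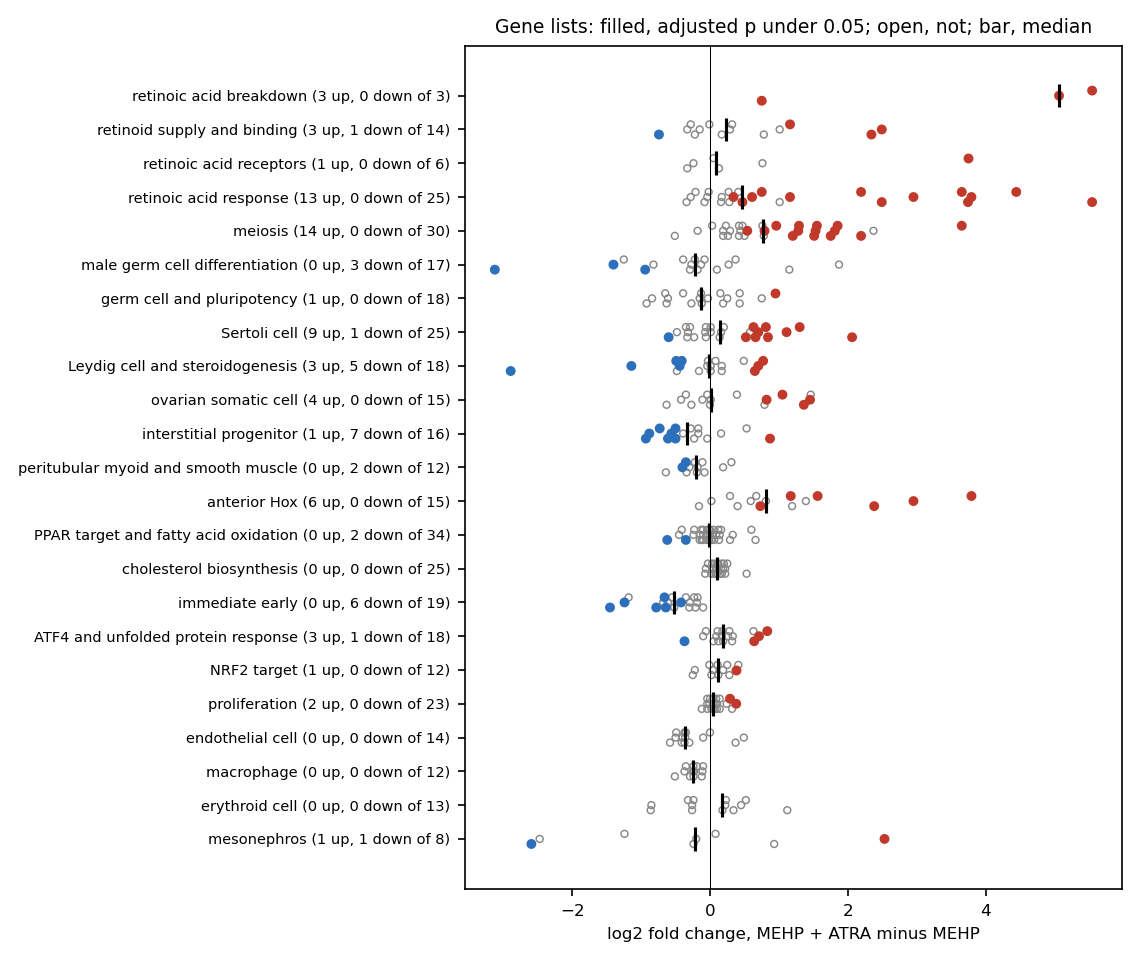
Log2 fold change, MEHP + ATRA minus MEHP, of every tested gene of 23 lists, with filled points for an adjusted p under 0.05, open points for the rest and a bar for the list's median. Meiosis (14 up, 0 down of 30) lies mostly to the right, immediate early genes (0 up, 6 down of 19) lie to the left, and cholesterol genes (0 of 25 called) lie between −0.07 and 0.53.

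Of 25 cholesterol biosynthesis genes, 0 were called in edgeR (2 at an unadjusted p under 0.05, and 0 with DESeq2 or limma-voom), with a median of 0.10 for adding ATRA and 0.48 for MEHP over vehicle. Mvd, which encodes mevalonate diphosphate decarboxylase, had 169, 164, 180 and 175 CPM with MEHP + ATRA and 135 to 205 CPM (median 163) with MEHP (0.17 ± 0.11). Among 34 genes of fatty acid oxidation or targeted by PPARs, 2 fell and 0 rose (median −0.02), a share of 5.88% against 8.29% of all genes tested. Angptl4 (ENSMUSG00000002289, chromosome 17, 33773750 to 33781575), an inhibitor of lipoprotein lipase and a PPAR target, had the smallest p of these genes. It stood at 104, 82.8, 106 and 94.0 CPM in MEHP + ATRA, below the 118 to 159 CPM (median 139) of MEHP and above the 47.1 to 61.4 CPM of vehicle. The change from MEHP was −0.62 ± 0.10 (adjusted p = 0.000121), and MEHP + ATRA stayed above vehicle by 0.77 ± 0.07 (adjusted p = 6.85e-10). Pex11a, a peroxisome division gene (−0.35 ± 0.10, adjusted p = 0.0243), lost its call in 3 of 30 fits that left out a library (without MEHP + ATRA replicate 1 or 2 or MEHP replicate 4). The carnitine palmitoyltransferase gene Cpt1a (−0.01 ± 0.10) and the pyruvate dehydrogenase kinase gene Pdk4 (0.16 ± 0.23) did not pass. Elovl2, a fatty acid elongase gene, did not pass either (−0.25 ± 0.23, adjusted p = 0.648).

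Of 19 immediate early genes, which respond within minutes to stimuli, 6 fell and 0 rose, and each of the 19 fitted values was negative (median −0.52, with a median of −0.51 for ATRA alone against vehicle). Btg2, an antiproliferative gene, had 29.9, 32.0, 28.1 and 30.6 CPM against 42.3 to 50.0 CPM (median 47.5), a fall of 0.78 ± 0.11 in log2 (adjusted p = 1.12e-05). The AP-1 genes Fosl2 (−0.64 ± 0.12) and Fosb (−1.45 ± 0.39), and Egr4 (−1.24 ± 0.37), Ier3 (−0.66 ± 0.20) and Ier2 (−0.42 ± 0.10) also fell, although Fosb had only 0.225 to 1.37 CPM over the libraries of both groups and lost its call without MEHP + ATRA replicate 3 (adjusted p = 0.0569). Egr1 (−0.52 ± 0.23, adjusted p = 0.199) and Fos (−0.29 ± 0.30) did not pass. In the ATF4 and unfolded protein response list, 3 of 18 rose and 1 fell. Psat1, a serine synthesis gene, rose by 0.83 ± 0.16, Asns, the asparagine synthetase gene, by 0.71 ± 0.18 and Trib3, a pseudokinase gene, by 0.64 ± 0.15. Ddit4 was called lower (−0.37 ± 0.12, adjusted p = 0.0467) and lost the call in 21 of 30 fits that left out a library. Of 12 NRF2 targets 1 rose, a share of 8.33% against 8.29% of all genes tested. It was the glutathione synthesis gene Gclc (0.37 ± 0.11), whose call was lost without MEHP + ATRA replicate 2 (adjusted p = 0.0602). Another target, Gclm, was just over the threshold (0.28 ± 0.09, adjusted p = 0.0508). It had 34.5 to 36.8 CPM against 25.3 to 30.6 CPM in MEHP and was called with DESeq2 (adjusted p = 0.0228) and limma-voom (adjusted p = 0.0193). Of 23 proliferation genes 2 rose (8.7%, also near the share of all genes), the DNA topoisomerase gene Top2a (0.38 ± 0.09) and the replication licensing gene Mcm2 (0.29 ± 0.08). Mcm2 lost its call without MEHP + ATRA replicate 2 (adjusted p = 0.0724), and 4 were higher without MEHP replicate 2. The proliferation marker Mki67 stood at 394 to 462 CPM against 391 to 492 CPM (adjusted p = 0.996).

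Markers of endothelial cells, macrophages and red blood cells gave 0 calls in edgeR (3, 1 and 0 genes at an unadjusted p under 0.05, 0 calls with DESeq2, and 1 endothelial call with limma-voom). The 14 endothelial genes summed to 408 to 505 CPM in MEHP + ATRA and 358 to 619 CPM in MEHP, the 12 macrophage genes to 67.4 to 89.2 and 74.8 to 92.4 CPM, and the 13 erythroid genes to 202 to 674 and 276 to 1036 CPM. All of these ranges overlapped. Medians were −0.37, −0.24 and 0.18. Of 8 tested mesonephros markers, Pax2, a kidney and duct transcription factor gene, rose by 2.53 ± 0.37 to 9.88, 7.87, 6.30 and 5.95 CPM from 1.39 to 2.88 CPM (median 1.84). Wfdc2, an epithelial protease inhibitor gene, fell by 2.59 ± 0.41 in log2 from 0.391 to 1.28 CPM to 0.135 to 0.244 CPM. The mesonephros markers Pax8 (0.08 ± 0.34), Gata3 (−0.20 ± 0.34) and Emx2 (−0.24 ± 0.21) did not pass.

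Further genes among the 12 largest rises lay outside these lists. Ecm1, an extracellular matrix protein gene, had 169, 233, 188 and 173 CPM against 14.5 to 21.2 CPM (median 18.8) and the smallest p of these (3.34 ± 0.14, adjusted p = 9.3e-17). Tmem255a, a transmembrane protein gene, stood at 160, 164, 152 and 156 CPM against 18.8 to 28.3 CPM (median 22.3; 2.98 ± 0.18). Il33, an alarmin cytokine gene, had 27.6, 46.6, 41.3 and 43.0 CPM against 1.01 to 6.63 CPM (median 4.05; 3.29 ± 0.55). Lpar3, a lysophosphatidic acid receptor gene (3.19 ± 0.35), Clic6, a chloride channel family gene (3.09 ± 0.42), Cebpe, a C/EBP transcription factor gene of myeloid cells (3.0 ± 0.38), and Muc4, a membrane mucin gene (2.91 ± 0.66), completed the 12 largest among genes averaging a log2 CPM of 1 or more.

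The 12 largest falls by the same rule included many genes at low levels. Lamp5, a lysosome-associated membrane protein family gene (ENSMUSG00000027270, chromosome 2, 136052239 to 136069917), was counted 0, 0, 1 and 3 times in MEHP + ATRA and 39 to 69 times in each MEHP library. Its fitted fall of −5.35 ± 0.50 (adjusted p = 9.01e-09) rests on those few counts. Slc13a2, a sodium-dicarboxylate cotransporter gene, fell by 3.03 ± 0.29 in log2, to 0.475, 0.279, 0.270 and 0.570 CPM from 2.44 to 5.64 CPM (median 3.22), and the overlapping antisense gene Slc13a2os by 2.43 ± 0.45. Miox, the inositol oxygenase gene, had 0.129, 0.0931, 0.045 and 0.0814 CPM, or 3, 2, 1 and 2 counts, against 0.635 to 2.08 CPM (median 1.27; −3.0 ± 0.54). Spata21, named for its link to spermatogenesis, stood at 4.32, 4.56, 4.50 and 3.87 CPM against 25.1 to 40.9 CPM (median 32.3; −2.87 ± 0.19, adjusted p = 3.21e-12). The murinoglobulin pseudogene Mug-ps1 (−2.95 ± 0.45), the glutamate receptor gene Grm7 (−2.53 ± 0.43), the scaffold gene Lin7a (−2.47 ± 0.45), the synaptotagmin gene Syt15 (−2.45 ± 0.31) and Khdc1a (−2.32 ± 0.55) made up the rest with Nanos2 and Hsd17b1. Khdc1a, like Nanos2, overlapped between the groups, and both Khdc1a and Mug-ps1 have near-identical relatives that could have shared reads. The strand setting of the counting is not given in the sources used here, so reads of Slc13a2 and Slc13a2os, Grm7 and Gm20387, Tnfsf13b and Gm44789, Tmem255a and Zbtb33, Muc4 and Muc20, Lrat and Rbm46os, Gli1 and Arhgap9, and Hoxa4 and Hoxaas3 cannot be told apart where they overlap. The same holds for other named genes, such as Asic4 and Gm37264, Cytip and Gm13546, Smc1b and Gm10923, and Dnmt3l and Aire.

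The test of whether ATRA acted differently with MEHP than without it, the interaction, called 6 genes (0.0311%) in edgeR, and 827 had an unadjusted p under 0.05. The count was 12 with DESeq2 and 10 with limma-voom, and 3 without MEHP + ATRA replicate 2. Asic4, which belongs to the acid-sensing ion channels (ENSMUSG00000033007, chromosome 1, 75450436 to 75474343), had the largest positive value (2.35, adjusted p = 0.000184). It stood at 1.63 to 3.01 CPM (median 1.98) in MEHP and at 1.77, 1.91, 1.08 and 1.51 CPM in MEHP + ATRA, with overlap. ATRA without MEHP lowered it by 2.54 ± 0.19 in log2, from 6.31 to 14.8 CPM in lower-range vehicle to 1.60 to 2.33 CPM. All treated groups thus lay at a like low level. Plekhd1, a pleckstrin homology domain gene, was also positive (1.06, adjusted p = 0.0245), with 0.60 ± 0.18 in MEHP and −0.46 ± 0.12 without it. The interaction lost its call in 6 of 30 fits that left out a library and without the range term (adjusted p = 0.223). The value in MEHP lost its call in 8 of those fits and was 0.17 without the range term (adjusted p = 0.595) or with the 10 MEHP + ATRA and MEHP libraries alone (adjusted p = 0.527).

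Lamp5, Cytip, Spata21 and Tdrp had negative interactions. Spata21 fell by 2.87 ± 0.19 in log2 in MEHP and by 1.65 ± 0.12 without it (interaction −1.21, adjusted p = 0.00566). Cytip, a cytohesin-interacting protein gene, rose by 1.13 ± 0.23 in MEHP and by 2.5 ± 0.14 without it (interaction −1.37, adjusted p = 0.0121), and was not called without MEHP + ATRA replicate 2 (adjusted p = 0.0512). It reached 16.5, 14.8, 14.6 and 15.9 CPM in MEHP + ATRA and 11.1 to 13.5 CPM in ATRA, from 3.65 to 8.21 CPM (median 6.56) in MEHP and 1.47 to 2.57 CPM in lower-range vehicle. Tdrp, named for testis development, was at −0.38 ± 0.12 in MEHP and 0.37 ± 0.08 without it (interaction −0.75, adjusted p = 0.00566). The value in MEHP (adjusted p = 0.0374) lost its call in 11 of 30 fits that left out a library, with limma-voom (adjusted p = 0.0598) and without the filter on low counts (adjusted p = 0.0638). Its levels were 36.0, 34.4, 33.5 and 34.2 CPM in MEHP + ATRA, just below the 36.2 to 56.5 CPM of MEHP, while lower-range vehicle held 21.7 to 28.6 CPM. Lamp5 was at −5.35 in MEHP and −2.25 without it (interaction −3.10, adjusted p = 0.037), and its call was lost in 17 fits that left out a library and with DESeq2 (adjusted p = 0.0708). With a block on the first title number, fitted with the range term or within range, the interactions of Tdrp, Plekhd1 and Lamp5 were not called. That of Spata21 was not called with the block within range (adjusted p = 0.0571).

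Among genes of the retinoid and meiotic groups none was called for the interaction. Stra8 was at 3.65 ± 0.58 in MEHP and 5.03 ± 0.32 without it (adjusted p = 0.879 for the difference), Cyp26a1 at 5.54 ± 0.88 and 6.10 ± 0.31 and Rarb at 3.74 ± 0.27 and 3.85 ± 0.16. For Stra8, MEHP itself was higher than vehicle (2.05 ± 0.42, adjusted p = 0.0021 in edgeR), so the 2 rises start from different levels. MEHP + ATRA stood above vehicle by 5.70 ± 0.33, with 206 to 243 CPM against 56.5 to 205 CPM in ATRA. Hsd17b1 was at −2.89 ± 0.24 and −2.04 ± 0.15 (adjusted p = 0.485 for the difference) and Nanos2 at −3.12 ± 0.73 and −1.86 ± 0.44. A p above the threshold does not show that these effects were equal.

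**Figure D4:**
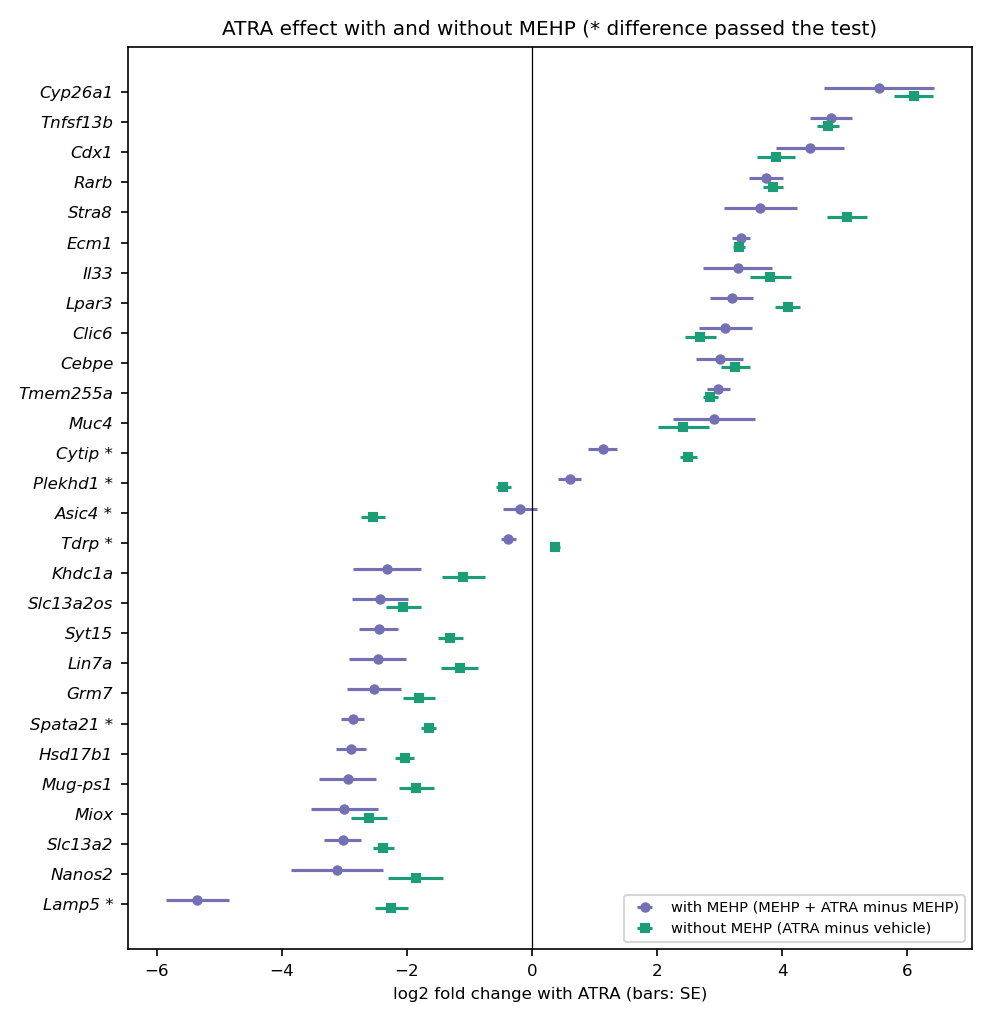
Log2 fold change with ATRA, with SE bars, in the presence of MEHP (circles) and without it (squares), for the 12 largest rises, the 12 largest falls and the genes called for the interaction, which are marked with an asterisk. The circles and squares of Ecm1, Rarb and Tnfsf13b nearly coincide, and those of Asic4, Lamp5 and Spata21 are apart.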

How the data were processed

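RNA of 30 testis cultures was sequenced from oligo(dT)-enriched, NEBNext Ultra II libraries, per the labels. The authors deposited raw counts per gene, 1 file per library. Per the submitters' processing notes, reads passed through bcl2fastq 2.20, and STAR 2.5.2b, Trimmomatic 0.36, featureCounts (Subread 1.5.2) and DESeq2 are also named, without an order. The sources used here give no strand setting or genome build. Gene identifiers and coordinates matched the GENCODE M21 annotation (GRCm38) for 99.3% and 91.43% of genes.

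All 30 libraries were fitted together with edgeR 4.0.16 (quasi-likelihood, R 4.3.3) on group and range of the second title number, after a filter on low counts (filterByExpr, minimum count 10) and TMM scaling. The fit left 25 residual degrees of freedom, and the common biological coefficient of variation was 12.7%. P-values were adjusted by Benjamini-Hochberg over 19323 genes, and genes under 0.05 are called. Alternatives were RLE scaling, DESeq2 1.42.0, limma-voom 3.58.1 with sample weights, no filter, fewer libraries, no range term, blocks on the first title number, and leaving out each library. The code was tested on simulated counts.

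The comparison and gene lists were chosen with earlier results of these data known. The rule for named genes took the 12 largest rises and 12 largest falls among called genes averaging a log2 CPM of 1 or more, up to 5 interactions in each direction, up to 4 members of each list by p, and a fixed panel. Other list members were named after their values were seen. No pair of libraries agreed within sampling noise. CPM values of 3 counts ranged from 0.102 to 0.171 over the libraries. Some genes counted in the lists are not reported here by name.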

Additional observations from a re-analysis of the deposited data

Results flagged for a closer look

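Among the genes named by rule, 22 of 236 gene and group pairs had a library far from the rest of its group by Dixon's ratio, where chance gives about 5%. In MEHP + ATRA, replicate 1 was high for Amh (641 CPM), Rhox8 (9.97 CPM), Ier2 (45.9 CPM) and Tpm1 (369 CPM). Replicate 2 of that group was high for Rxrg (1.12 CPM), Lpar3 (10.01 CPM), Aldh1a2 (76.7 CPM) and Plekhd1 (7.73 CPM) and low for Psat1 (131 CPM). Cyp26a1 was low in replicate 3 (16.8 CPM), and Hsd17b3 was high in replicate 4 (40.8 CPM).

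In MEHP, replicate 5 was high for Amh (1066 CPM), Asic4 (3.01 CPM) and Rara (102 CPM). Replicate 4 was high for Mug-ps1 (5.11 CPM), Muc4 (2.75 CPM) and Egr1 (46.8 CPM) and low for Tpm1 (391 CPM). Replicate 1 was high for Lpar3 (1.32 CPM) and Cpt1a (308 CPM). Replicate 2 was low for Sox9 (89.5 CPM) and Gclm (25.3 CPM).

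The effect of ATRA with MEHP minus its effect without MEHP passed the test of the difference (edgeR) for 6 genes. On the log2 scale the difference was 2.35 for Asic4, 1.06 for Plekhd1, −0.75 for Tdrp, −1.21 for Spata21, −1.37 for Cytip and −3.10 for Lamp5.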

How the results depend on the processing

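The 1601 genes called between MEHP + ATRA and MEHP became 2794 with only those 10 libraries and 3181 without the range term, where 1391 and 1449 of the 1601 were shared. With RLE scaling, DESeq2, limma-voom, no filter on low counts, or 25 libraries the count was 1608, 1846, 2040, 1273 and 1455, and with single libraries left out it was 1307 to 1724. The 6 interaction genes became 12 with DESeq2, 10 with limma-voom and 10 without the range term, and 3 to 8 with single libraries left out, the 3 being without MEHP + ATRA replicate 2. The 10-library and 25-library fits cannot give the interaction. The cause of these shifts was not tested. Residual correlations were taken between treated and vehicle libraries of the same range. Pairs sharing the first title number had −0.149 to 0.797, with a median of 0.193 and 19 of 27 pairs over 0.1. For pairs with different numbers the median was −0.024 and 21 of 90 were over 0.1. Same-number pairs thus shared variation more often, which the main fit does not remove. Since not every pair exceeded 0.1 and the labels do not explain the first title number, it was not taken to pair samples in the main fit. As a replicate block, it gave 1877 genes with the range term and 1940 within range, and 3 and 2 interaction genes. Under these blocks the interaction lost its call for Tdrp (adjusted p = 0.0663 and 0.107), Plekhd1 (0.0663 and 0.0966) and Lamp5 (0.128 and 0.0653), and within range also for Spata21 (0.0571). Of 78 called genes named by rule, 64 kept call and direction whichever library was left out, and 63 did so under each alternative run. No named gene that was called reversed. At the depth of these libraries, Cyp26c1 lay near 3 counts per library or below in MEHP and vehicle, and Miox and Lamp5 did so in MEHP + ATRA. Their fold changes rest on those few counts.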
